A study of Mus musculus with 9 samples.

Results

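The genes described here are the enzymes of glycolysis and gluconeogenesis, taken as every gene of the deposited table whose KEGG pathway annotation holds ko00010. The rule found 551 of 56691 genes, namely 74 protein-coding genes, 476 pseudogenes and 1 gene with no class in the GENCODE annotation. All 9 libraries came from RAW264.7, a line of mouse macrophages from which RANKL induces cells resembling osteoclasts, and fell into 3 groups of 3: control without RANKL, RANKL, and RANKL + UD, in which UD is uridine. Cells were harvested after 3 days, RANKL was used at 50 ng/mL according to the methods of the study, and the uridine dose of these libraries was not named in the sources used here. One cell line was used throughout, and no source says whether the 3 libraries of a group came from separate cultures, so p-values measure the spread between these libraries, which may be technical.

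Glycolysis turns glucose into pyruvate in the cytosol and yields ATP without oxygen. Lactate dehydrogenase then reduces pyruvate to lactate and restores the NAD+ that the pathway needs, while in the mitochondrion the pyruvate dehydrogenase complex turns pyruvate into acetyl-CoA. Most steps can be carried out by several isozymes encoded by separate genes, and gluconeogenesis shares the reversible steps but bypasses the irreversible ones with enzymes of its own. Osteoclasts are known for a high demand for energy, which both glycolysis and mitochondrial respiration supply.

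Of the 551 genes, 351 had no count in any library, 134 had counts but stayed below the expression filter (FPKM 1 or more, in 3 or more of the libraries), and 66 were tested. FPKM divides a count by exonic length and library total. The deposited exonic length can exceed that of any 1 transcript. For Eno1 it was 5379 bases, against 2027 for the longest coding transcript in GENCODE M21. Levels of different genes, and isozyme shares by FPKM, can therefore be set side by side only roughly. The 66 comprised 44 coding genes and 22 pseudogenes. Library totals ranged from 15951800 to 19746862 counts. The summed FPKM of 8 osteoclast markers was 46.7 to 49.9 in control, 2639 to 2843 in RANKL and 1665 to 1702 in RANKL + UD, and that of 8 macrophage markers was 8900.0 to 9489, 2371 to 2602 and 2070.2 to 2199. Lyz2, a macrophage lysozyme, held most of the macrophage sum. Cd68, another marker of that list, went the other way from the sum in RANKL against control, at 524 to 599 FPKM in control, 758 to 830 in RANKL and 606 to 668 in RANKL + UD. Mertk was at or near 0 in every library. All 8 fibroblast markers summed to at most 1.23 FPKM, and the lymphocyte markers Ms4a1 and Cd3e were at 0. The part that the change in cell state had in the values below was not tested. In these bulk libraries, fewer cells of a type and less RNA per cell cannot be told apart.

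The genes of the pathway were mostly higher in RANKL than in control, and many were lower in RANKL + UD than in RANKL. With edgeR's quasi-likelihood test and Benjamini-Hochberg adjustment over all 11995 genes tested (adjusted p under 0.05), 42 of the 66 genes were higher and 10 lower in RANKL than in control. Over all genes, 27.3% were called higher and 30.2% lower in this comparison. Against RANKL, 5 of the 66 were higher and 31 lower in RANKL + UD, where 18.6% of all genes were called higher and 20.2% lower. Of the 43 coding genes, 5 were higher and 26 lower. The lower calls of the latter comparison depended on the scaling, since 8 of the 66 were higher and 20 lower when libraries were scaled by their total counts alone. The libraries of the 2 groups did not overlap, in FPKM, for 40 of the 66 genes in the higher and 12 in the lower direction in RANKL against control (22.9% and 38.8% of all genes), and for 9 and 24 in RANKL + UD against RANKL (34.1% and 17.6%). With a fold change over 1.5 required in addition, 34 of the 66 were higher and 6 lower in RANKL than in control (10.8% and 14.1% of all genes), and 2 were higher and 6 lower in RANKL + UD than in RANKL (4.38% and 5.49%). The comparisons share the RANKL libraries, so their values are set side by side below and not counted together.

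The core steps lead from glucose to lactate. Of their 33 coding genes (Eno1b, a near-copy of Eno1, left out), 22 were tested, of which 16 were higher and 4 lower in RANKL than in control (27.3% and 30.2% of all genes). Their median log2 fold change was 0.70, against -0.03 over all genes. In RANKL + UD against RANKL, 2 of the 22 were higher and 16 lower (18.6% and 20.2% of all genes), with a median of -0.28 against 0.00497 over all genes. The alternatives were other scalings, filters and tools, 6 libraries, a replicate block, summed copies and leaving out any single library. The filters changed the number of core genes tested, from 20 (FPKM of at least 5) to 28 (no filter). Across the alternatives, 16 to 17 core genes were higher and 2 to 4 lower in RANKL than in control. In RANKL + UD against RANKL, 0 to 4 were higher and 13 to 16 lower, with 4 and 13 under total-count scaling. With a fold change over 1.5 required, 12 were higher and 2 lower in RANKL than in control (10.8% and 14.1% of all genes), and 1 was higher and 3 lower in RANKL + UD than in RANKL (4.38% and 5.49%). The core genes and their pseudogene copies took 1.36%, 1.38% and 1.47% of all counts in control, 2.03%, 2.13% and 2.21% in RANKL and 1.77%, 1.83% and 1.87% in RANKL + UD. The 3 groups did not overlap in this share, with RANKL the highest and RANKL + UD between the others.

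**Figure D1:**
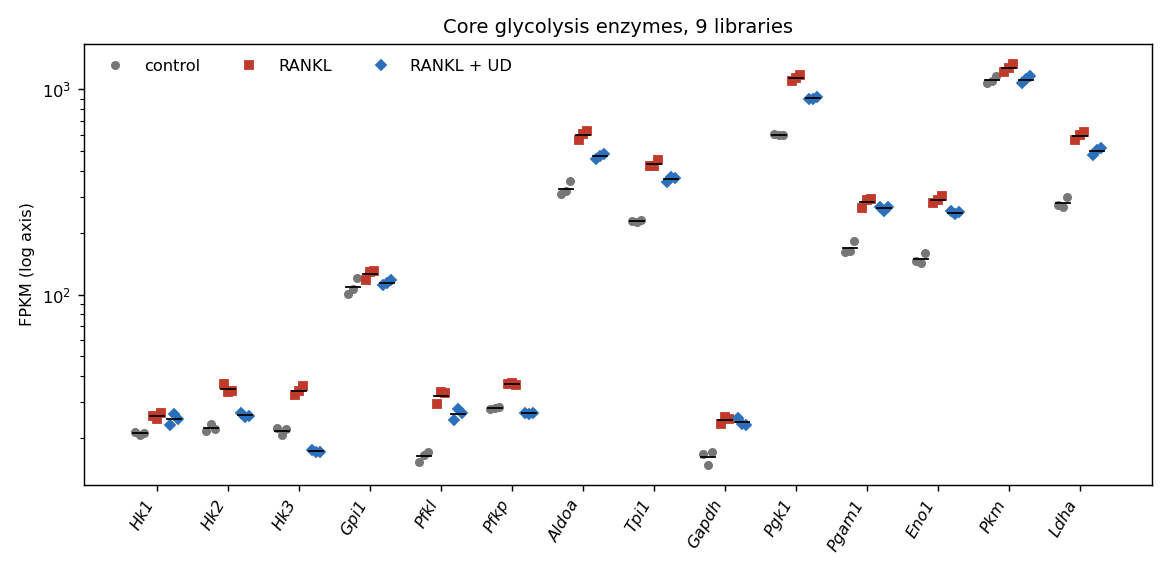
FPKM (log axis) of 14 core enzymes in pathway order for each of the 9 libraries, with a bar at each group's mean. Pkm and Pgk1 had the highest levels, Hk3 and Pfkp in RANKL + UD lay below control, and for Aldoa, Tpi1, Pgk1, Eno1 and Ldha the 3 groups did not overlap.

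**Figure D2:**
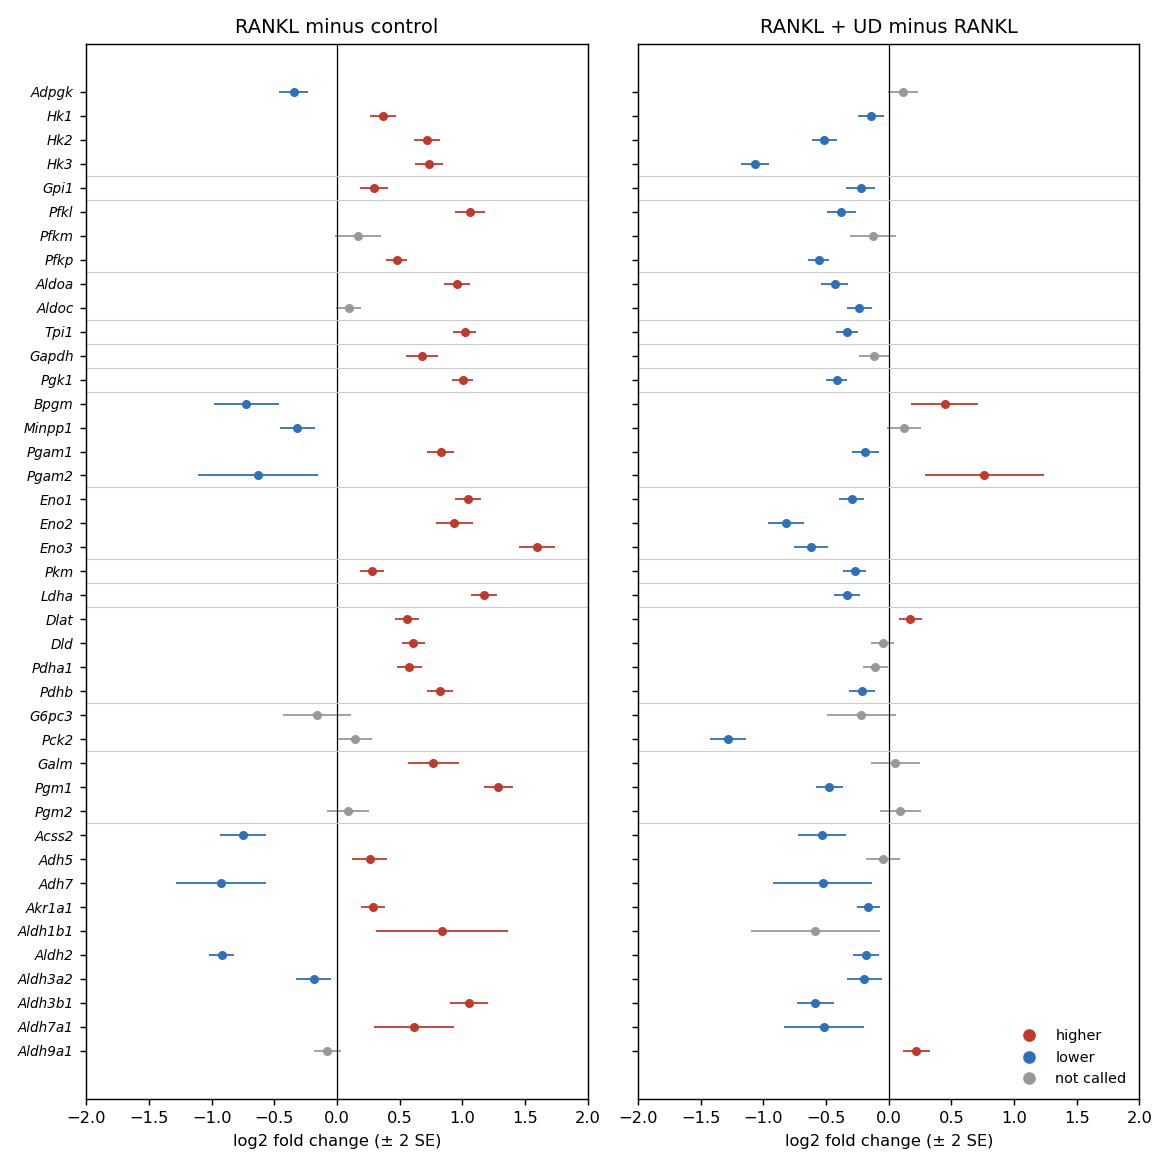
Log2 fold change with 2 SE on each side for the tested coding genes of the listed steps, ordered by step, in RANKL against control (left) and RANKL + UD against RANKL (right). Red marks genes called higher, blue lower and grey not called, and 16 of the 22 core genes were called in each predominant direction.

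Glucose phosphorylation traps glucose in the cell and is carried out by the hexokinases Hk1, Hk2 and Hk3, and by the ADP-dependent glucokinase Adpgk. The summed FPKM of this step was 75.4 ± 0.516 in control, 102 ± 1.89 in RANKL and 76.6 ± 0.605 in RANKL + UD (mean ± SD, n = 3). Hk2, the inducible hexokinase, had the highest mean FPKM of the 4 over the 9 libraries. It was at 21.7, 23.5 and 22.1 in control, 36.5, 33.6 and 34.0 in RANKL and 26.4, 25.3 and 25.6 in RANKL + UD (FPKM). Its RANKL libraries lay above both other groups. Hk2 rose in RANKL against control, with a log2 fold change of 0.72 ± 0.05 (SE, adjusted p = 1.08e-10), and was lower in RANKL + UD than in RANKL, at -0.51 ± 0.05 (SE, adjusted p = 8.35e-08) on the log2 scale. Hk3, an isozyme of blood cells, was at 22.3, 20.8 and 22.1 in control, 32.2, 34.0 and 35.6 in RANKL and 17.5, 17.1 and 17.1 in RANKL + UD (FPKM), and RANKL + UD had the lowest libraries of all. Its log2 fold change was 0.73 ± 0.06 (SE, adjusted p = 2.86e-10) in RANKL against control, -1.06 ± 0.06 (SE, adjusted p = 1.14e-11) in RANKL + UD against RANKL and -0.33 ± 0.06 (SE, adjusted p = 5.34e-05) in RANKL + UD against control.

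Hk1, the housekeeping hexokinase, was at 21.5, 20.7 and 21.1 in control, 25.7, 24.7 and 26.6 in RANKL and 23.1, 26.2 and 24.7 in RANKL + UD (FPKM). It was higher in RANKL than in control (0.37 ± 0.05 (SE) on the log2 scale), and its lower call in RANKL + UD against RANKL, at -0.14 ± 0.05 (SE), ended when libraries were scaled by total counts (-0.06, adjusted p = 0.408) or when RANKL + UD replicate 1 was left out (-0.10, adjusted p = 0.178). Leaving out RANKL + UD replicate 3, RANKL replicate 1 or RANKL replicate 3 ended it too, with adjusted p of 0.0792, 0.0661 and 0.0876. Adpgk was lower in RANKL than in control (-0.35 ± 0.06 (SE)) and overlaps Bbs4 on the opposite strand. In RANKL + UD against RANKL it was not called (0.11 ± 0.06 (SE)), but was called higher under total counts (0.20, adjusted p = 0.00952) and by limma with both pseudocounts. Hk3 held 28.8% ± 1.16 in control, 33.2% ± 1.60 in RANKL and 22.5% ± 0.478 in RANKL + UD of the summed FPKM of the step (mean ± SD, n = 3), while Hk1 held 28.0% ± 0.574 in control, 25.1% ± 0.473 in RANKL and 32.2% ± 1.72 in RANKL + UD. Hk2 held 29.7% ± 1.25 in control, 33.9% ± 1.48 in RANKL and 33.7% ± 1.03 in RANKL + UD, with overlapping libraries in the 2 RANKL-treated groups, whereas by counts, which are not corrected for length, its share was lower in RANKL + UD than in RANKL without overlap. By counts Hk1 had the largest mean share in each group. It held 36.6% in control, 35.0% in RANKL and 41.1% in RANKL + UD, against 27.2%, 33.1% and 30.1% for Hk2. Hkdc1, a further hexokinase, stayed below the filter with counts of 0, 0 and 0 in control, 30, 51 and 32 in RANKL and 13, 15 and 33 in RANKL + UD.

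**Figure D3:**
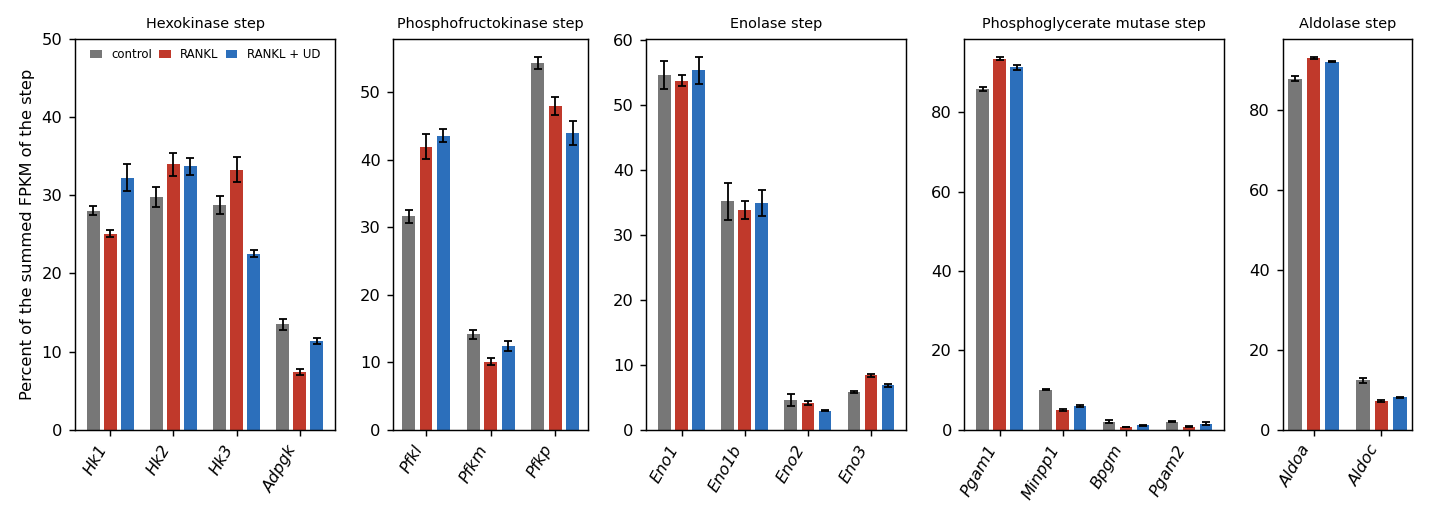
Share of each isozyme in the summed FPKM of its step (percent, mean of 3 libraries, error bars SD) for 5 steps in control, RANKL and RANKL + UD. Pseudogene copies were left out of the sums. Hk3 and Pfkp had their lowest mean shares in RANKL + UD, while the shares of Eno1 and Eno1b overlapped between all groups.

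The following steps convert glucose 6-phosphate to triose phosphates. Gpi1, which isomerises glucose 6-phosphate, was at 100.3, 106 and 119.8 in control, 118, 129 and 129.8 in RANKL and 111, 114 and 117 in RANKL + UD (FPKM), so that the RANKL libraries overlapped with control. Its log2 fold change was 0.29 ± 0.06 (SE, adjusted p = 1.59e-04) in RANKL against control and -0.22 ± 0.06 (SE, adjusted p = 0.00372) in RANKL + UD against RANKL, and the second call ended under total-count scaling (-0.14, adjusted p = 0.0610). Phosphofructokinase, the committed step of glycolysis, is a tetramer of the liver (Pfkl), muscle (Pfkm) and platelet (Pfkp) subunits. Pfkl was at 15.3, 16.5 and 17.0 in control, 29.4, 33.5 and 33.3 in RANKL and 24.6, 27.6 and 26.4 in RANKL + UD (FPKM), and no libraries of the 3 groups overlapped. It was higher in RANKL than in control by 1.06 ± 0.06 (SE, adjusted p = 1.81e-12) on the log2 scale and lower in RANKL + UD than in RANKL, at -0.38 ± 0.06 (SE, adjusted p = 2.63e-05).

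Pfkp was at 27.6, 27.9 and 28.3 in control, 36.6, 37.1 and 36.2 in RANKL and 26.4, 26.2 and 26.6 in RANKL + UD (FPKM), so that all RANKL + UD libraries were below every control library. It changed by 0.48 ± 0.04 (SE, adjusted p = 3.99e-09) in RANKL against control and by -0.56 ± 0.04 (SE, adjusted p = 2.23e-09) in RANKL + UD against RANKL (log2). Against control, the RANKL + UD value of -0.08 ± 0.04 (SE, adjusted p = 0.118) was not called. Pfkm passed the test in neither comparison, at 0.17 ± 0.09 (SE) and -0.13 ± 0.09 (SE) on the log2 scale. Pfkl held 31.6% ± 0.901 in control, 41.9% ± 1.89 in RANKL and 43.6% ± 1.01 in RANKL + UD of the FPKM of the step, and Pfkp held 54.3% ± 0.877 in control, 48.0% ± 1.36 in RANKL and 44.0% ± 1.75 in RANKL + UD. The share of Pfkl was larger in both RANKL-treated groups than in control, with no overlap. Pfkp and Pfkm overlap Pitrm1 and Senp1 on the opposite strand, and the strand setting of the counting was not given in the sources used here.

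Aldoa, the main aldolase of muscle and most other cells, was at 308, 319 and 357 in control, 569, 603 and 627 in RANKL and 459.5, 472 and 486 in RANKL + UD (FPKM). The groups were fully separated, with a log2 fold change of 0.96 ± 0.05 (SE, adjusted p = 1.96e-12) in RANKL against control and -0.43 ± 0.05 (SE, adjusted p = 1.84e-06) in RANKL + UD against RANKL. Aldoc, the brain form, did not pass the test in RANKL against control (0.09 ± 0.05 (SE) log2) and was lower in RANKL + UD than in RANKL (-0.23 ± 0.05 (SE)). Its share of the step was 12.3% ± 0.642 in control, 7.15% ± 0.179 in RANKL and 8.10% ± 0.141 in RANKL + UD. Tpi1, which interconverts the triose phosphates, was at 227, 226 and 229.8 in control, 424, 425 and 454 in RANKL and 354, 373 and 371 in RANKL + UD (FPKM), again with no overlap between groups. It changed by 1.02 ± 0.04 (SE, adjusted p = 3.09e-14) in RANKL against control and by -0.33 ± 0.04 (SE, adjusted p = 4.76e-06) in RANKL + UD against RANKL (log2). Tpi1 overlaps Spsb2 on the opposite strand.

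Gapdh, which oxidises glyceraldehyde 3-phosphate and was the reference gene of the study's qPCR, stood apart in its level. Its FPKM was 16.6, 14.8 and 17.2 in control, 23.3, 25.3 and 24.6 in RANKL and 25.2, 23.4 and 23.1 in RANKL + UD, below that of each neighbouring step. Most reads of this step were counted on Gm13394, a processed pseudogene. Counts on Gm13394 were 13864, 16102 and 14339 in control, 27414, 29252 and 30695 in RANKL and 28347, 24487 and 27328 in RANKL + UD, against 1159, 1209 and 1132 in control, 1898, 2021 and 1952 in RANKL and 2044, 1579 and 1647 in RANKL + UD for Gapdh itself. Over all 372 genes that carry the Gapdh orthology term (Zfp738 and Peli2 left out), Gm13394 held 88.6% ± 0.300 of the counts in control, 89.8% ± 0.514 in RANKL and 90.1% ± 0.805 in RANKL + UD (mean ± SD, n = 3), and Gapdh held 7.02% ± 0.356, 6.04% ± 0.256 and 5.91% ± 0.487. The deposited exonic length of Gapdh was 4133 bases, whereas its longest coding transcript in GENCODE M21 has 1420 bases. In the coordinates of the table, Gapdh was placed on chromosome 6, 125138678 to 125143430, and Gm13394 on chromosome 2, 28823622 to 28824621.

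Gm13394 spans 1000 bases that begin with the start codon of Gapdh, and differs from the coding sequence at 1 position. The substitution is A346C (the Gapdh base, the position counted from 1 at the 5′ end of Gm13394, the Gm13394 base). The stretch from position 286 to 405 of Gm13394 and the matching part of Gapdh (GENCODE M21) are shown. They hold the only base that differs over the 1000 shared bases, which is in capitals.
Gapdh: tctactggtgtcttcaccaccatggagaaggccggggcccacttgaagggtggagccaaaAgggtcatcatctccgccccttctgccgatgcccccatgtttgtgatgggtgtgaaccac
Gm13394: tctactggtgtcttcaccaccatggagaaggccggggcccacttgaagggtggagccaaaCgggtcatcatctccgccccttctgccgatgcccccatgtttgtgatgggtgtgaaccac
A read of 150 bases that does not cover this position is identical in the 2 transcripts over the shared stretch. Values of Gapdh and of its copies are therefore uncertain one by one. Gapdh as deposited had a log2 fold change of 0.68 ± 0.06 (SE, adjusted p = 8.08e-09) in RANKL against control and of -0.12 ± 0.06 (SE, adjusted p = 0.149) in RANKL + UD against RANKL, with an interval of 2 SE from -0.24 to 0.01 in the latter. With the tested copies summed into Gapdh, the values were 0.91 ± 0.05 (SE, adjusted p = 4.96e-12) and -0.08 ± 0.05 (SE, adjusted p = 0.227). The summed counts of Gapdh and 13 tested copies were 943 ± 52.9 CPM (counts scaled to equal library totals) in control, 1656 ± 109 in RANKL and 1658 ± 64.2 in RANKL + UD (mean ± SD, n = 3). Gapdhs, the sperm form, stayed below the filter with at most 54 counts in a library. Gapdh also overlaps Iffo1 on the opposite strand.

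**Figure D4:**
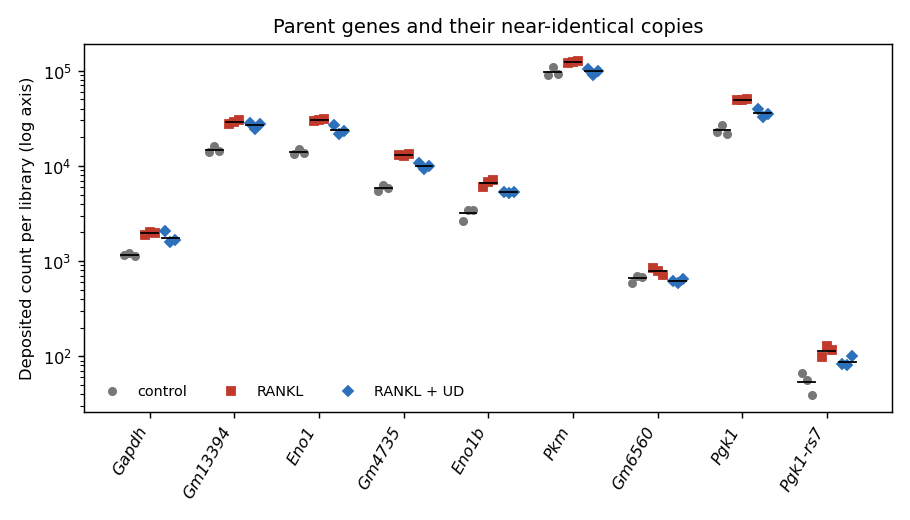
Deposited counts per library (log axis) of the parent genes Gapdh, Eno1, Pkm and Pgk1 and of 5 near-identical copies, with a bar at each group's mean. Gm13394 lay above Gapdh in every library, Gm4735 and Eno1b lay below Eno1, and the copies of Pkm and Pgk1 took under 1% of the summed counts.

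Phosphoglycerate kinase makes the first ATP of the pathway. Pgk1 was at 608, 599.9 and 598 in control, 1100.0, 1135 and 1172 in RANKL and 893, 901 and 915 in RANKL + UD (FPKM), with no overlap between groups. It rose by 1.00 ± 0.04 (SE, adjusted p = 1.59e-14) on the log2 scale in RANKL against control and was lower in RANKL + UD than in RANKL, at -0.42 ± 0.04 (SE, adjusted p = 1.15e-07). Pgk2, the testis form, had no count. In the next step Pgam1, the main phosphoglycerate mutase, was at 161, 163 and 183 in control, 265, 289 and 291 in RANKL and 267, 255 and 266 in RANKL + UD (FPKM), and its RANKL and RANKL + UD libraries overlapped. The change of 0.83 ± 0.05 (SE, adjusted p = 3.04e-11) in RANKL against control (log2) stood beside -0.19 ± 0.05 (SE, adjusted p = 0.00904) in RANKL + UD against RANKL, a call that ended under total-count scaling (-0.10, adjusted p = 0.142) and without RANKL + UD replicate 2 (-0.16, adjusted p = 0.0585).

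The other 3 enzymes of the mutase step went the other way in RANKL against control. Pgam2, the muscle mutase, was at 3.53, 4.28 and 4.10 in control, 2.48, 2.28 and 2.48 in RANKL and 4.18, 5.40 and 3.52 in RANKL + UD (FPKM), and the RANKL libraries were the lowest. Its log2 fold change was -0.63 ± 0.24 (SE, adjusted p = 0.0291) in RANKL against control, a call that ended without RANKL replicate 1, 2 or 3 or control replicate 2 or 3, at adjusted p between 0.0514 and 0.0905. In RANKL + UD against RANKL it was 0.76 ± 0.24 (SE, adjusted p = 0.0142), and without RANKL + UD replicate 2 it was 0.59, adjusted p = 0.0930. Bpgm, which makes bisphosphoglycerate, was at 4.50, 3.60 and 3.79 in control, 2.29, 2.19 and 2.28 in RANKL and 2.93, 3.64 and 3.23 in RANKL + UD (FPKM). It was lower in RANKL than in control, at -0.72 ± 0.13 (SE, adjusted p = 6.51e-05), and higher in RANKL + UD than in RANKL at 0.45 ± 0.13 (SE, adjusted p = 0.0106) on the log2 scale, a call that ended without RANKL + UD replicate 2 (0.37, adjusted p = 0.0622). Minpp1, a phosphatase that acts on inositol phosphates and on bisphosphoglycerate, was lower in RANKL than in control (-0.31 ± 0.07 (SE)) and was not called in RANKL + UD against RANKL (0.12 ± 0.07 (SE)), where total counts (0.21, adjusted p = 0.0202) and limma with both pseudocounts called it higher. Pgam1 held 85.8% ± 0.428 in control, 93.4% ± 0.340 in RANKL and 91.3% ± 0.566 in RANKL + UD of the FPKM of the step.

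At the enolase step Eno1, Eno2 and Eno3 rose in RANKL and were lower in RANKL + UD than in RANKL. Eno1, the enolase of most tissues, was at 146, 142 and 159 in control, 278, 289 and 303 in RANKL and 254, 246 and 251 in RANKL + UD (FPKM) and changed by 1.05 ± 0.05 (SE, adjusted p = 1.46e-13) in RANKL against control and by -0.30 ± 0.05 (SE, adjusted p = 7.05e-05) in RANKL + UD against RANKL (log2). Eno3, the muscle enolase, was at 14.6, 15.5 and 17.6 in control, 43.7, 45.2 and 46.3 in RANKL and 30.5, 32.6 and 30.2 in RANKL + UD (FPKM), and its groups were far apart. Among the coding genes it had the largest rise in RANKL against control, with a log2 fold change of 1.59 ± 0.07 (SE, adjusted p = 5.07e-14), and it was lower in RANKL + UD than in RANKL at -0.62 ± 0.07 (SE, adjusted p = 3.30e-07). Eno2, the neuronal enolase, was at 12.9, 13.5 and 10.5 in control, 22.8, 21.2 and 22.8 in RANKL and 13.2, 13.7 and 13.3 in RANKL + UD (FPKM), so that RANKL + UD overlapped with control. Its log2 fold change was 0.94 ± 0.07 (SE, adjusted p = 3.99e-10) in RANKL against control, -0.82 ± 0.07 (SE, adjusted p = 1.60e-08) in RANKL + UD against RANKL and 0.12 ± 0.07 (SE, adjusted p = 0.192) in RANKL + UD against control. Eno2 held 4.55% ± 0.933 in control, 4.13% ± 0.306 in RANKL and 2.95% ± 0.0466 in RANKL + UD of the FPKM of the step and Eno3 held 5.80% ± 0.108 in control, 8.36% ± 0.235 in RANKL and 6.86% ± 0.248 in RANKL + UD. The sum of this step includes Eno1b but not the pseudogene copies.

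Eno1 shared its sequence with Gm4735, a processed pseudogene, and with Eno1b, an intronless copy annotated as coding. Gm4735 differs from Eno1 at 5 of 1302 positions, all within the coding sequence. The stretch from position 711 to 830 of Gm4735 and the matching part of Eno1 (GENCODE M21) are shown because they hold 2 of these differences, in capitals, which are T726C and T816G when counted from the 5′ end of Gm4735.
Eno1: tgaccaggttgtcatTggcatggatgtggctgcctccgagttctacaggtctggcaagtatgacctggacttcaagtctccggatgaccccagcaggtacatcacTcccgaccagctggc
Gm4735: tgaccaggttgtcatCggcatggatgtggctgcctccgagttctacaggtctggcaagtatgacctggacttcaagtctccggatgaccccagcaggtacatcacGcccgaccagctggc
In contrast to Gapdh, the parent kept the larger part. The 3 tested copies held 39.3% ± 1.19 of the summed counts in control, 39.5% ± 0.0683 in RANKL and 39.2% ± 1.49 in RANKL + UD (mean ± SD, n = 3), with overlapping libraries in all groups. With the copies summed into Eno1, its log2 fold changes were 1.05 ± 0.05 (SE) and -0.30 ± 0.05 (SE).

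Pyruvate kinase makes the second ATP and pyruvate. Pkm, the coding gene of the set with the highest FPKM, was at 1069.7, 1102 and 1156 in control, 1208, 1268 and 1328 in RANKL and 1071, 1117 and 1157 in RANKL + UD (FPKM). Its log2 fold change came to 0.28 ± 0.05 (SE, adjusted p = 2.56e-05) in RANKL against control and -0.27 ± 0.05 (SE, adjusted p = 8.62e-05) in RANKL + UD against RANKL. RANKL + UD against control was not called, at 0.01 ± 0.05 (SE) with an interval of 2 SE from -0.08 to 0.10. Gene-level counts do not separate the M1 and M2 splice forms of Pkm, and Gm49759 overlaps it on the same strand. Pklr, the liver and red cell form, had no count.

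Ldha, which makes lactate from pyruvate, was at 272, 268 and 299 in control, 563, 599 and 622 in RANKL and 479, 508 and 518 in RANKL + UD (FPKM), with no overlap between the groups. It rose by 1.18 ± 0.05 (SE, adjusted p = 3.15e-14) on the log2 scale in RANKL against control. In RANKL + UD it was lower than in RANKL, at -0.33 ± 0.05 (SE, adjusted p = 2.65e-05), and higher than in control, at 0.84 ± 0.05 (SE, adjusted p = 9.43e-12). Ldhb, the heart form, had at most 2 counts in a library, which left Ldha with nearly all of the FPKM of the step in every group. The 5 genes of the set with the highest Pearson correlation to Ldha in log2(FPKM + 1) over the 9 libraries were Gm4735 (0.998), Eno1 (0.997), Tpi1 (0.996), Pgm1 (0.991) and Pfkl (0.990). These values describe libraries of 3 groups whose means differ, and reads of Gm4735 and Eno1 cannot be told apart over most of their length.

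The promoters of these genes were searched for the core of the hypoxia response element, spelled ACGTG or GCGTG, on both strands of the 250 bases before each RefSeq start (GRCm38.p6). A promoter window was found for 40 of the 43 tested coding genes, in 56 windows since several genes have more than 1 start. Some windows of the same gene overlap and repeat a site. Mea1 and Zfp738, which are not enzymes of the pathway, are among these genes. Either motif was in 38 of the 56 windows (67.9%), against 56.8% of the windows of all tested genes and 38.6% of all windows. Windows of Ldha (upstream of its first start), Pgk1 and Pgam1 are shown as examples of enzymes called in both comparisons with more than 1 match. Hk1, Hk2, Pfkp, Eno1 and Pgm1, among others, also met this rule. Matches are in capitals and overlapping matches run together, as both strands of ACGTG do in CACGTG.
Ldha, chr7:46845704-46845803, plus strand: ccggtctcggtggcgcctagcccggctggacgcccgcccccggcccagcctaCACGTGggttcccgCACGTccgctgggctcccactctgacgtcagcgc
Pgk1, chrX:106186921-106187020, plus strand: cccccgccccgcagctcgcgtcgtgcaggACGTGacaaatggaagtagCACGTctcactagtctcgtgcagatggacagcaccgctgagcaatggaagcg
Pgam1, chr19:41911735-41911834, plus strand: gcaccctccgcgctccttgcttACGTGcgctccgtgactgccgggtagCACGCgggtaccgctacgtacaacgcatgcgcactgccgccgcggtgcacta
The search found 5 matches in the whole Ldha window, 2 in that of Pgk1 and 3 in that of Pgam1. The windows of Tpi1, Gpi1, Eno2, Dld, Dlat, Akr1a1, Aldh1b1 and Aldh3b1, all higher in RANKL than in control, held none. Neither did the windows of Adh7, Bpgm and Pgam2, all lower in RANKL than in control. Those of Adpgk, Minpp1 and Aldh3a2, all lower in RANKL than in control, held 2, 2 and 3. A match describes these letters only, and binding of a factor was not measured.

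All 4 tested genes of the pyruvate dehydrogenase complex, which links glycolysis to the citric acid cycle, were higher in RANKL than in control. Dld, the E3 subunit with the highest level, was at 70.7, 67.5 and 68.2 in control, 99.7, 95.7 and 101 in RANKL and 102, 103 and 99.7 in RANKL + UD (FPKM). Both RANKL-treated groups lay above control, and they overlapped with each other. On the log2 scale it differed by 0.61 ± 0.05 (SE, adjusted p = 2.30e-10) in RANKL against control and -0.05 ± 0.05 (SE, adjusted p = 0.427) in RANKL + UD against RANKL, the latter with an interval from -0.14 to 0.04 and the opposite sign under total-count scaling. The E1 subunits Pdha1 and Pdhb changed by 0.58 ± 0.05 (SE) and 0.82 ± 0.05 (SE) in RANKL against control (log2). Pdhb was lower in RANKL + UD than in RANKL (-0.21 ± 0.05 (SE)), which was not called under total-count scaling (-0.12, adjusted p = 0.0576), and Pdha1 was not called (-0.11 ± 0.05 (SE)) except without control replicate 3 (-0.11, adjusted p = 0.0492).

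Dlat, the E2 subunit, was at 30.4, 31.2 and 29.0 in control, 41.0, 41.7 and 43.0 in RANKL and 51.2, 49.6 and 49.4 in RANKL + UD (FPKM), and its libraries were highest in RANKL + UD. It rose in RANKL against control (0.56 ± 0.05 (SE, adjusted p = 1.90e-09) on the log2 scale) and again in RANKL + UD against RANKL (0.17 ± 0.05 (SE, adjusted p = 0.00599)). The summed FPKM of the complex was 170.3 ± 4.68 in control, 249 ± 4.54 in RANKL and 255 ± 2.29 in RANKL + UD, whereas that of the lactate dehydrogenase step was 279.9 ± 16.7, 595 ± 29.4 and 502 ± 20.2 (mean ± SD, n = 3).

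Of the 7 enzymes listed as particular to gluconeogenesis, 2 were tested. Pck2, the mitochondrial phosphoenolpyruvate carboxykinase, was at 9.02, 10.0 and 9.62 in control, 9.08, 9.98 and 10.8 in RANKL and 4.37, 4.13 and 4.49 in RANKL + UD (FPKM). Control and RANKL overlapped, and every RANKL + UD library was below all of them. It had the largest fall of all coding genes of the set in RANKL + UD against RANKL, with a log2 fold change of -1.29 ± 0.07 (SE, adjusted p = 2.39e-11), and was also lower than in control (-1.14 ± 0.07 (SE, adjusted p = 1.71e-11)). In RANKL against control its value of 0.15 ± 0.07 (SE, adjusted p = 0.0712) was not called, but it was without RANKL replicate 1 (0.21, adjusted p = 0.0176). G6pc3, the widely expressed glucose-6-phosphatase subunit, was at 6.67, 7.85 and 10.1 in control, 6.61, 7.39 and 6.63 in RANKL and 5.28, 7.22 and 6.40 in RANKL + UD (FPKM). It was called neither in RANKL against control nor in RANKL + UD against RANKL (-0.16 ± 0.14 (SE) and -0.22 ± 0.14 (SE) log2). In RANKL + UD against control it was called lower, at -0.38 (adjusted p = 0.0246), with overlapping libraries. That call ended without RANKL + UD replicate 1 (-0.27, adjusted p = 0.145), without control replicate 3 (-0.21, adjusted p = 0.187) and by limma with both pseudocounts. Pck1, Fbp2 and G6pc had no count, and Fbp1 and G6pc2 had at most 9 and 2 counts in a library. A count of 0 allows up to 3 counts per library, by counting error only.

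Pgm1 interconverts glucose 1-phosphate and glucose 6-phosphate and so connects glycogen to glycolysis. Pgm1 was at 21.4, 22.5 and 24.3 in control, 50.6, 53.6 and 52.7 in RANKL and 38.4, 42.1 and 39.6 in RANKL + UD (FPKM), with full separation of the groups. It rose by 1.29 ± 0.06 (SE, adjusted p = 3.08e-14) on the log2 scale in RANKL against control and was lower in RANKL + UD than in RANKL, at -0.47 ± 0.05 (SE, adjusted p = 6.93e-07). Pgm2, which was listed with it, was called in neither comparison (0.09 ± 0.08 (SE) and 0.09 ± 0.08 (SE)). The share of Pgm1 in the summed FPKM of Pgm1, Pgm2 and Galm was 51.5% ± 0.392 in control, 66.7% ± 0.738 in RANKL and 57.9% ± 2.04 in RANKL + UD (mean ± SD, n = 3). Galm, the aldose mutarotase, was higher in RANKL than in control (0.77 ± 0.10 (SE)) and was not called in RANKL + UD against RANKL (0.05 ± 0.10 (SE)). Pgm1 overlaps Itgb3bp on the opposite strand.

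The branch of alcohol, aldehyde and acetate enzymes did not move as a block. Of its 17 genes, 10 were tested, with 5 higher and 4 lower in RANKL than in control, and 1 higher and 7 lower in RANKL + UD than in RANKL. Of all genes, 27.3% and 30.2% were called in the first comparison and 18.6% and 20.2% in the second. In the second, the libraries did not overlap for 1 gene in the higher and 4 in the lower direction (34.1% and 17.6% of all genes). The lower calls of Adh7 and Aldh3a2 ended there under total-count scaling (adjusted p = 0.0804 and 0.243) and without some single libraries. That of Aldh7a1 ended by limma with both pseudocounts and without RANKL + UD replicate 3 (-0.45, adjusted p = 0.0626). Akr1a1, an aldehyde reductase and the most abundant of them, was at 172, 172 and 180.4 in control, 194, 201 and 207 in RANKL and 182, 196 and 193 in RANKL + UD (FPKM). On the log2 scale the difference was 0.29 ± 0.05 (SE, adjusted p = 1.72e-05) in RANKL against control and -0.16 ± 0.05 (SE, adjusted p = 0.00815) in RANKL + UD against RANKL, the latter with overlapping libraries and not called under total-count scaling (-0.08, adjusted p = 0.210) or without RANKL + UD replicate 1 (-0.13, adjusted p = 0.0550). Aldh3b1, an aldehyde dehydrogenase, was at 20.8, 21.2 and 24.7 in control, 39.8, 44.9 and 45.4 in RANKL and 29.7, 29.2 and 33.1 in RANKL + UD (FPKM). It rose by 1.05 ± 0.07 (SE, adjusted p = 1.05e-10) and was lower in RANKL + UD than in RANKL, at -0.59 ± 0.07 (SE, adjusted p = 2.00e-06) (log2). Acss2, which makes acetyl-CoA from acetate, was at 3.47, 3.14 and 3.13 in control, 1.72, 1.80 and 1.94 in RANKL and 1.28, 1.39 and 1.34 in RANKL + UD (FPKM) and was lower in both comparisons, at -0.75 ± 0.09 (SE, adjusted p = 3.92e-07) and -0.53 ± 0.10 (SE, adjusted p = 1.70e-04). Gss overlaps it on the opposite strand. Aldh2, the mitochondrial enzyme that clears acetaldehyde, was at 48.9, 49.9 and 48.9 in control, 23.3, 24.5 and 25.8 in RANKL and 23.6, 22.1 and 23.2 in RANKL + UD (FPKM) and was lower in RANKL than in control (-0.92 ± 0.05 (SE)). Its further value of -0.18 ± 0.05 (SE) in RANKL + UD against RANKL was not called under total-count scaling (-0.09, adjusted p = 0.149) or without RANKL + UD replicate 2 (-0.15, adjusted p = 0.0561).

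Among the 22 tested pseudogenes and Eno1b, 15 were higher and 1 lower in RANKL than in control, and 0 were higher and 5 lower in RANKL + UD than in RANKL by edgeR. The shares of all genes were 27.3% higher and 30.2% lower, and 18.6% higher and 20.2% lower. At an unadjusted p under 0.05, 1 of these 23 was higher in RANKL + UD than in RANKL, and DESeq2 called 0. Of the 23, 22 aligned to a coding gene of the set over at least 50% of their length, at 84.0% to 100% identity, and 3000002C10Rik, a Gapdh pseudogene, over 31.5%. Pgk1-rs7 and Pgam1-ps2 were identical to their parents over their whole length, so their counts cannot be told apart from those of Pgk1 and Pgam1. Gm8941, the Gapdh pseudogene with 87.2% identity, had counts of 0, 0 and 0 in control, 53, 53 and 49 in RANKL and 24, 21 and 30 in RANKL + UD, together 155 in RANKL and 75 in RANKL + UD. Relative to total counts and to a floor of 3 counts over the control group, this was at least 46.6-fold higher in RANKL and at least 24.7-fold higher in RANKL + UD. Its lower call in RANKL + UD against RANKL (-0.998 ± 0.31 log2, SE, adjusted p = 0.0158) ended without RANKL replicate 2, RANKL + UD replicate 1 or RANKL + UD replicate 2, at adjusted p of 0.0508, 0.0625 and 0.0565. Gm9522, another Gapdh pseudogene at 85.8% identity, was at 1.15, 1.97 and 2.37 in control, 0.880, 0.610 and 0.560 in RANKL and 1.48, 1.13 and 0.810 in RANKL + UD (FPKM) and was the one that fell in RANKL against control (-1.32 ± 0.41 (SE, adjusted p = 0.00882)).

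Tpi-rs11, a Tpi1 copy, was at 4.98, 2.78 and 4.65 in control, 10.6, 8.35 and 12.1 in RANKL and 10.5, 9.29 and 8.03 in RANKL + UD (FPKM). It rose by 1.43 ± 0.29 (SE, adjusted p = 2.36e-04) in RANKL against control and was not called in RANKL + UD against RANKL, at -0.24 ± 0.26 (SE) (log2). Gm5855, an Eno1 copy, was at 2.41, 2.76 and 2.83 in control, 4.98, 6.78 and 5.47 in RANKL and 3.94, 5.40 and 3.90 in RANKL + UD (FPKM). It rose by 1.19 ± 0.19 (SE, adjusted p = 1.48e-05), and its lower value in RANKL + UD against RANKL, -0.47 ± 0.18 (SE, adjusted p = 0.0415), came from overlapping libraries and was not called under 8 of the alternatives. These were total counts, no filter, limma with either pseudocount, and leaving out RANKL replicate 2 or 3 or RANKL + UD replicate 1 or 3, at adjusted p from 0.0513 to 0.212. Gm12286, Gm7336 and Gm5559 are Gapdh pseudogenes whose RANKL libraries all lay above control. Gm12286 was at 0.650, 0.560 and 0.130 in control, 1.06, 2.12 and 1.20 in RANKL and 1.22, 2.02 and 1.56 in RANKL + UD (FPKM), with 1.76 ± 0.48 (SE, adjusted p = 0.00356) and 0.04 ± 0.40 (SE) on the log2 scale in the 2 comparisons. Gm7336 was at 0.820, 0.950 and 0.920 in control, 1.69, 2.35 and 1.73 in RANKL and 1.94, 1.39 and 1.64 in RANKL + UD (FPKM), with 1.19 ± 0.30 (SE, adjusted p = 0.00192) and -0.29 ± 0.27 (SE). Gm5559 was at 12.4, 12.2 and 14.4 in control, 26.2, 27.1 and 26.9 in RANKL and 27.1, 24.1 and 22.6 in RANKL + UD (FPKM), with 1.13 ± 0.10 (SE, adjusted p = 4.32e-09) and -0.20 ± 0.10 (SE). None of these 3 was called in RANKL + UD against RANKL, except Gm5559 as lower without RANKL + UD replicate 1 (adjusted p = 0.0439).

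Some genes carried the pathway annotation without being enzymes of it. Zfp738, a zinc finger gene, and Peli2, a ubiquitin ligase, were annotated with the orthology term of Gapdh beside their own, and Mea1 with another term of the pathway. Zfp738 was at 2.28, 2.69 and 2.56 in control, 2.14, 2.01 and 1.67 in RANKL and 3.30, 3.15 and 2.93 in RANKL + UD (FPKM) and was higher in RANKL + UD than in RANKL, with a log2 fold change of 0.60 ± 0.09 (SE, adjusted p = 2.15e-05). Its lower call in RANKL against control (-0.29 ± 0.09 (SE, adjusted p = 0.0115)) ended without control replicate 2 (-0.24, adjusted p = 0.0641) and without RANKL replicate 3 (-0.19, adjusted p = 0.0838). Mea1 was called in no comparison.

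Compared with control, the RANKL + UD libraries kept a higher level of many of the enzymes. Of the 66 genes tested, 35 were higher and 10 lower in RANKL + UD than in control, where 26.7% of all genes were called higher and 27.3% lower. Among the 43 coding genes without Eno1b, 22 were higher and 10 lower, with a median log2 fold change of 0.18. The other 13 higher calls were on the 23 copies, namely the pseudogenes and Eno1b, whose reads can stem from their parents. With a fold change over 1.5, 24 of the 66 genes were higher and 4 lower (9.3% and 12.8% of all genes). The libraries did not overlap for 36 of the 66 in the higher and 11 in the lower direction (29.5% and 30.4%). Of the 22 core genes, 11 were higher, 4 lower and 7 not called, with a median log2 fold change of 0.17 against -0.00208 over all genes. Ldha, Eno3, Pfkl and Tpi1 were at 0.84, 0.97, 0.69 and 0.69 on the log2 scale in RANKL + UD against control. The values for Hk2, Hk1 and Hk3 were 0.20, 0.23 and -0.33. Gpi1 was not called (0.07 ± 0.06 (SE, adjusted p = 0.317)) except without control replicate 3 (0.14, adjusted p = 0.0148). All 4 tested genes of the pyruvate dehydrogenase complex were higher in RANKL + UD than in control, from 0.47 for Pdha1 to 0.73 for Dlat.

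Genes that bring glucose in, carry lactate out or set the flux of glycolysis without being in ko00010 were followed as a list of 20, of which 18 were tested. In RANKL against control, 10 were higher and 5 lower, and in RANKL + UD against RANKL 3 were higher and 9 lower. Over all genes the shares called were 27.3% and 30.2%, and 18.6% and 20.2%. Slc2a1, the glucose transporter GLUT1, was at 32.6, 35.7 and 36.1 in control, 57.0, 62.4 and 64.1 in RANKL and 36.0, 38.6 and 42.8 in RANKL + UD (FPKM). It rose by 0.90 ± 0.06 (SE, adjusted p = 6.27e-11) in RANKL against control and was lower in RANKL + UD than in RANKL, at -0.73 ± 0.06 (SE, adjusted p = 9.24e-09) (log2). Slc16a3, the lactate exporter MCT4, was at 18.9, 21.2 and 22.6 in control, 29.7, 34.8 and 34.1 in RANKL and 24.4, 27.4 and 29.3 in RANKL + UD (FPKM), with 0.74 ± 0.07 (SE) and -0.37 ± 0.07 (SE) for the same comparisons. Slc16a1, the monocarboxylate transporter MCT1, went the other way. It was at 48.7, 48.0 and 50.2 in control, 27.8, 28.1 and 28.9 in RANKL and 47.4, 47.4 and 45.1 in RANKL + UD (FPKM), with a log2 fold change of -0.70 ± 0.05 (SE, adjusted p = 4.07e-11) in RANKL against control and 0.64 ± 0.05 (SE, adjusted p = 1.64e-09) in RANKL + UD against RANKL. Slc2a6, a further sugar transporter, was lower in RANKL than in control, at -2.13 ± 0.10 (SE) (log2), and was not called in RANKL + UD against RANKL (0.24 ± 0.11 (SE)).

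Among the kinases that hold pyruvate dehydrogenase inactive, Pdk1, Pdk2 and Pdk3 were higher in RANKL than in control. Pdk4 reached at most 0.02 FPKM and was not tested. Pdk2 had low levels, from 0.88 to 1.99 FPKM. Its log2 fold change was 0.80 ± 0.19 (SE) in RANKL against control and -0.68 ± 0.19 (SE) in RANKL + UD against RANKL. Pdk1 was at 16.7, 17.3 and 15.8 in control, 31.3, 33.4 and 29.6 in RANKL and 25.0, 26.2 and 25.9 in RANKL + UD (FPKM), and the groups did not overlap. Pdk1 and Pdk3 had log2 fold changes of 1.01 ± 0.05 (SE) and 0.99 ± 0.07 (SE) in RANKL against control, and of -0.38 ± 0.05 (SE) and -0.17 ± 0.07 (SE) in RANKL + UD against RANKL, where Pdk3 was not called (adjusted p = 0.0517). Pdp1, a phosphatase with the opposite action, was lower in both comparisons, at -0.42 ± 0.10 (SE) and -0.43 ± 0.10 (SE). Pdp2, the other phosphatase of the list, was not called in RANKL against control (-0.02 ± 0.08 (SE)) and was higher in RANKL + UD than in RANKL, at 0.35 ± 0.08 (SE, adjusted p = 0.00119). Pfkfb3, whose product stimulates phosphofructokinase, rose by 0.64 ± 0.06 (SE) and was lower in RANKL + UD than in RANKL at -0.35 ± 0.06 (SE), while Tigar, which degrades the same product, was at -0.35 ± 0.10 (SE) and 0.32 ± 0.10 (SE). The related enzymes Pfkfb2 and Pfkfb4 did not share this pattern. Pfkfb2 was higher in RANKL than in control, at 0.89 ± 0.09 (SE, adjusted p = 1.54e-08), and Pfkfb4 lower, at -0.68 ± 0.12 (SE, adjusted p = 3.60e-05), and neither was called in RANKL + UD against RANKL (0.09 ± 0.08 (SE) and -0.27 ± 0.12 (SE)).

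Several glycolysis genes are classical targets of the hypoxia-inducible factor, so 15 other hypoxia-responsive genes were followed, of which 14 were tested. In RANKL against control, 11 were higher and 2 lower, with a median log2 fold change of 0.58, where 27.3% of all genes were called higher and 30.2% lower. The 2 lower genes were Egln3, at -1.49 ± 0.18 (SE, adjusted p = 3.80e-07), and Ankrd37, at -0.76 ± 0.11 (SE, adjusted p = 5.78e-06). In RANKL + UD against RANKL, 0 were higher and 12 lower by edgeR, with a median of -0.68, where 18.6% and 20.2% of all genes were called. At an unadjusted p under 0.05 and by DESeq2, 0 were higher as well. Car9 and Higd1a had values of -0.09 ± 0.23 (SE) and -0.13 ± 0.10 (SE) that were not called. Bnip3, a mitophagy receptor, was at 94.7, 92.7 and 93.7 in control, 237, 236 and 240.1 in RANKL and 145, 144 and 143 in RANKL + UD (FPKM). It changed by 1.43 ± 0.04 (SE, adjusted p = 6.57e-17) and -0.81 ± 0.04 (SE, adjusted p = 1.16e-11) (log2), with no overlap between groups. Ndrg1, a stress-responsive gene, was at 47.2, 47.3 and 47.0 in control, 49.3, 50.4 and 50.2 in RANKL and 13.9, 13.5 and 13.4 in RANKL + UD (FPKM), with the largest fall of the list in RANKL + UD against RANKL, at -1.96 ± 0.05 (SE, adjusted p = 2.09e-17). Ero1a, an oxidase of the endoplasmic reticulum, was at 94.4, 94.0 and 95.7 in control, 150.1, 146 and 139.7 in RANKL and 60.2, 59.2 and 60.2 in RANKL + UD (FPKM), lower in RANKL + UD than in both other groups. Vegfa, an angiogenic growth factor, changed by 0.83 ± 0.05 (SE) and -0.78 ± 0.05 (SE). Several of these genes also respond to other forms of stress, and oxygen was not measured in these libraries.

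**Figure D5:**
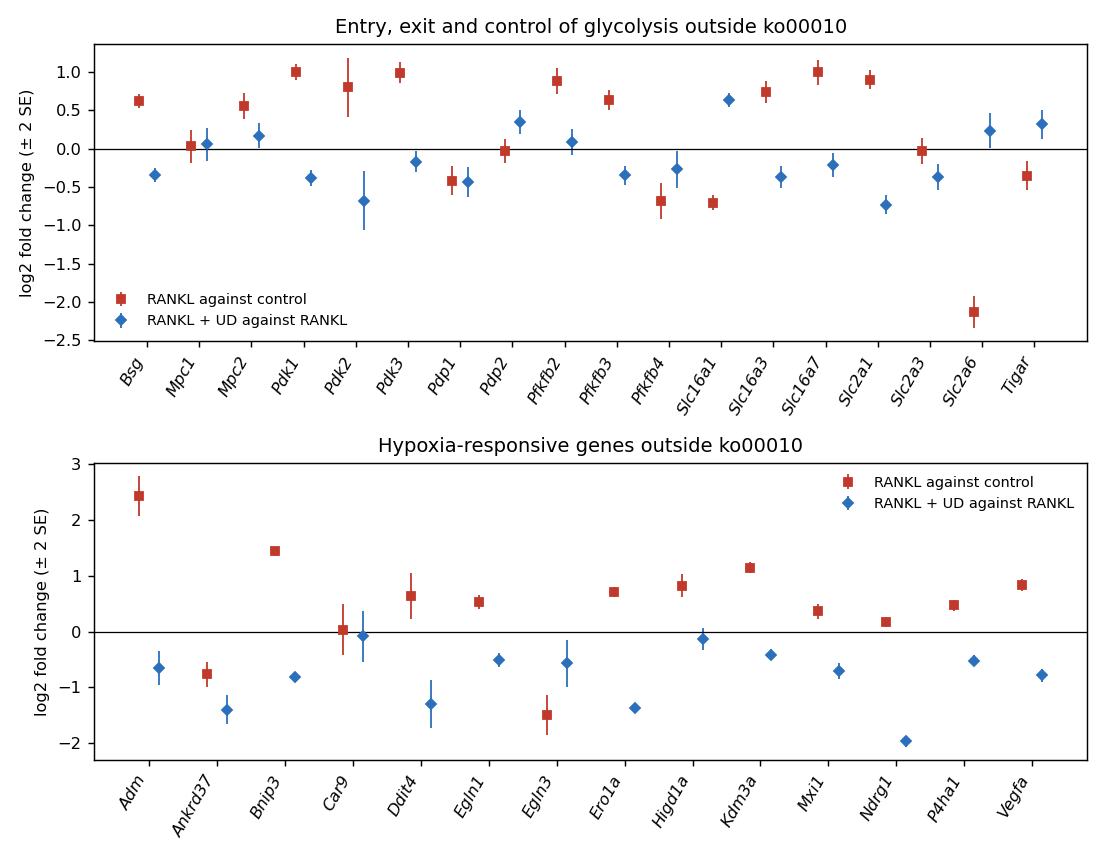
Log2 fold change with 2 SE on each side for the tested genes of 2 lists outside ko00010, in RANKL against control (red squares) and RANKL + UD against RANKL (blue diamonds). In the hypoxia list 12 of 14 genes were called lower in RANKL + UD than in RANKL, and in the other list 9 of 18.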

How the data were processed

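RNA of 9 RAW264.7 libraries was sequenced in 150-base pairs after poly(A) selection and strand-specific preparation, per the labels. The authors deposited whole-number counts per gene without normalization, and FPKM values that equalled the count scaled by exonic length and total counts in 100% of values (tolerance 0.0051). The aligner, counter and strand setting are not given in the sources used here. The submitters' processing notes name mm10, yet only 12 of 550 shared genes had the coordinates of the GRCm38 annotation (548 had the same span), so positions are those of the table and the build is unsettled. Every value column was matched to 1 library by name.

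Counts were tested with edgeR 4.0.16 in R 4.3.3 (quasi-likelihood, TMM scaling, 9 libraries in one fit), over the 11995 genes at FPKM 1 or more in 3 or more libraries. Genes were called at a Benjamini-Hochberg adjusted p under 0.05. TMM factors were 0.959 to 0.963 in RANKL and 1.01 to 1.03 elsewhere. Isozyme shares were not tested, because the smallest two-sided p that an exact permutation of 3 and 3 libraries allows is 0.1. Copies were matched to GENCODE M21 coding transcripts with blastn 2.17.0. Values are given in full for the gene with the highest mean FPKM of each step and for the 10 called genes without overlap that had the largest log2 fold change in RANKL against control and in RANKL + UD against RANKL. Aldh2, Pfkl, Hk1, Bpgm, Dlat, G6pc3 and the genes named from the lists were added after their values were seen. The genes and lists were chosen with earlier results of these data known. The alternatives were DESeq2 1.42.0, limma 3.58.1 on log2(FPKM + 1) and log2(FPKM + 0.1), other scalings and filters, 6 libraries only, leaving out single libraries, blocking on the replicate number, a fold change over 1.5, and shares of counts. Summing copies into their parent was an alternative added with the data in view. The fitting script was tested on simulated data.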

Additional observations from a re-analysis of the deposited data

How the results depend on the processing

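The counts of calls over the 66 genes were recomputed under each alternative that could give them, and those over the core genes under the same fits. The counts for the alcohol branch, the copies and the 2 lists were not recomputed under all of them. Summing the copies into their parents left 27 genes higher in RANKL than in control and 22 higher in RANKL + UD than in control, since fewer genes were then tested. A filter at an FPKM of at least 5 left 4 lower in RANKL than in control and 2 higher in RANKL + UD than in RANKL. A required fold change over 1.5 left 6 lower in RANKL than in control, 2 higher and 6 lower in RANKL + UD than in RANKL, and 4 lower in RANKL + UD than in control. Scaling by total counts gave 8 higher and 20 lower in RANKL + UD than in RANKL, limma on log2(FPKM + 1) gave 8 and 19, and limma on log2(FPKM + 0.1) gave 19 lower. Total counts also moved the median log2 fold change of all genes to -0.11 in RANKL against control and to 0.09 in RANKL + UD against RANKL. With 1 library left out, counts ranged from 42 to 43 higher and 7 to 10 lower in RANKL against control, from 3 (without RANKL + UD replicate 2) to 6 higher and 24 to 32 lower in RANKL + UD against RANKL, and from 33 to 37 higher and 7 to 11 lower in RANKL + UD against control.

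Same-numbered libraries deviated together only weakly, with correlations of -0.0194 to 0.0984 over 9 pairs, highest for replicate 1. The best match among the 3 libraries of another group had the same number in 11 of 18 cases. A weak pairing by replicate number is therefore possible. With the replicate number as a block, the counts were 42 higher and 10 lower, 5 and 31, and 35 and 10 for the 3 comparisons in the order above.

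Shares taken from counts in place of FPKM, which do not correct for length, gave Hk2 27.2% in control, 33.1% in RANKL and 30.1% in RANKL + UD, so that the RANKL + UD libraries lay below RANKL without overlap. In control, RANKL and RANKL + UD they gave Pfkp 73.8%, 67.2% and 63.9%, Aldoa 86.4%, 92.1% and 91.0%, Gapdh 98.0%, 99.1% and 98.1%, Pgam1 82.5%, 91.7% and 89.4%, and Eno1 75.0%, 74.8% and 76.5%. These are shares among the listed genes of a step, with pseudogene copies left out. Over all genes with its orthology term (Zfp738 and Peli2 left out), Gapdh held 7.02%, 6.04% and 5.91% of the counts. The enolase sum includes Eno1b but not Gm4735. The core genes and their pseudogene copies held 1.52%, 2.43% and 2.15% of the summed FPKM.

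Among single genes, 10 values changed sign, all of them not called. Dld in RANKL + UD against RANKL was 0.037 on the log2 scale under total counts and limma with pseudocount 1, and 0.038 with pseudocount 0.1. Gm12286 in the same comparison was -0.15, -0.09 and -0.16 without RANKL replicate 1, RANKL replicate 3 and RANKL + UD replicate 2, with 0.40 as its highest value when 1 library was left out. In RANKL + UD against control, Pgam2 ranged from -0.040 without RANKL + UD replicate 2 to 0.26 without replicate 3. Pkm was -0.015 with the filter at 5, and with 1 library left out it ranged from -0.018 without RANKL + UD replicate 3 to 0.039 without control replicate 3, with a value below 0 also without control replicate 1. Another 39 values lost and 5 gained their call, and 1644 did neither. The causes were not tested. Genes under the filter, with at most 1.71 FPKM, were too shallow to be compared.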
